A study of Mus musculus with 9 samples.

Results

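Genes of neurons and Schwann cells were followed in the aorta of male mice with and without BMAL1, the transcription factor at the head of the circadian clock. The rule named 32 genes, and 31 of them had at least 1 probe set that the platform annotation pairs with that gene alone, out of 18193 genes measured in this way. Periaxin (Prx) was the gene without such a probe set, so its expression is not analysed here. Its promoter window is still counted below among those of the genes of the rule. The 31 genes had 69 probe sets, and each gene is represented below by its probe set with the highest mean over all arrays. They were divided into 15 neuronal genes, 12 Schwann cell genes and 4 genes made by both cell types. The rule names genes by cell type and uses no value of these arrays, although earlier results of the arrays were known when it was written.

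There were 5 arrays labelled BMAL+/+ (F01, F04, F07, F09 and F10) and 4 labelled BMAL-/- (F02, F03, F05 and F08), all from mice described as partially backcrossed onto C57Bl/6J. The animals lived for at least 2 weeks with 12 h of light per day, were then kept in darkness for 30 h or longer, and were killed at ZT14, that is, 14 h after the start of the former light phase. Vessels were rinsed with saline through the heart, dissected from the arch to beyond the branching of the femoral arteries, and ground whole. Age, the deleted part of the gene and whether a sample was 1 animal or a pool are not given in the sources used here. The p-values measure the spread between these samples. The source name of F01 reads BMAL-/- although its title and strain read BMAL+/+, and it was kept in BMAL+/+.

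The wall of the aorta is reached by axons of sympathetic neurons, whose cell bodies lie in ganglia along the great vessels. A ganglion holds the cell bodies with most of the neuronal messenger RNA, whereas the axons in the adventitia carry little of it. Schwann cells wrap axons along their whole course, either with a myelin sheath or, around thin sympathetic axons, without one.

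The values are log2 expression as the authors deposited them, with array medians from 3.13 to 3.24, so a difference of 1 is a doubling. A dense floor lies at the lower end, where the 20th percentile of the arrays was between 2.38 and 2.45, and genes with a mean under 4 over the 9 arrays are called near the floor. The smooth muscle markers of the aorta were bright on every array, with a mean over 6 genes between 10.3 on F03 and 11.9 on F07. Clock genes of 2 arrays went against their labels. On F04, labelled BMAL+/+, Arntl, the gene of BMAL1, read 6.67, and on F05, labelled BMAL-/-, it read 2.77, while the other BMAL+/+ arrays lay between 2.74 and 2.82 and the other BMAL-/- arrays between 5.87 and 6.22. Npas2 and Nr1d2 placed F04 and F05 in the same way, with Npas2 at 8.36 on F04 and 3.40 on F05, and Nr1d2 at 5.81 and 11.2. Arntl was thus higher on most arrays labelled BMAL-/-, and whether its probe set lies in the deleted part is not given in the sources. Results by genotype are therefore given for the arrays as labelled and also for the 7 arrays without F04 and F05.

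The neuronal genes were high on 1 array of each genotype. Of the 15, 12 were highest on F09, labelled BMAL+/+, and 3 on F03, labelled BMAL-/-, and for 12 these were the highest pair of arrays. Among the 11 neuronal genes that were not near the floor, 9 were highest on F09 and 8 had F09 and F03 as their highest pair. Over all 9699 genes with a mean of at least 4, 19.7% were highest on F09 and 4.34% had that pair on top. F04, labelled BMAL+/+, and F05, labelled BMAL-/-, lay at the other end, each lowest for 4 of the 11 neuronal genes. In ground tissue, more cells of a type and more RNA per cell cannot be told apart.

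Intermediate filaments and tubulin give axons their shape, and their genes showed the pattern plainly. Nefl, the light neurofilament chain, read 4.54 on F01, 3.56 on F04, 5.06 on F07, 8.92 on F09 and 3.65 on F10 in BMAL+/+, and 4.54 on F02, 7.41 on F03, 3.56 on F05 and 4.54 on F08 in BMAL-/-. On F09 this was 20.8 times the median of the 9 arrays and on F03 7.28 times. The values of F01, F02 and F08 were equal to 4 decimals. The mean of the 5 BMAL+/+ arrays was 5.15 ± 2.20 (SD) and that of the 4 BMAL-/- arrays 5.01 ± 1.66 (SD). They differed by -0.13 ± 1.20 (SE), and the groups overlapped. Its second probe set was also highest on F09 (7.57) and F03 (4.81) and lay between 2.34 and 2.53 on the other arrays.

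The medium and heavy neurofilament chains, Nefm and Nefh, were near the floor on average and stood above it on the same arrays. Nefm read 6.55 on F09 and 5.61 on F03, against 2.86 to 3.68 on the others. Nefh read 6.24 on F09 but only 4.04 on F03, against 3.08 to 3.38 on the others. Peripherin (Prph), the neurofilament-like protein of peripheral neurons, read 4.77, 3.08, 5.41, 8.30 and 3.38 on F01, F04, F07, F09 and F10, and 4.07, 7.01, 3.19 and 3.76 on F02, F03, F05 and F08. F09 and F03 were again highest, F07 and F01 followed, and F04, F05 and F10 were lowest. Its other 3 probe sets were near the floor, between 1.75 and 3.78, with differences between genotypes of 0.01 each, opposite in sign to the -0.48 ± 1.16 (SE) of the brighter probe set.

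Tubb3, the neuronal beta-tubulin, read 4.38, 3.78, 5.12, 8.18 and 4.16 on F01, F04, F07, F09 and F10, and 4.25, 5.89, 3.70 and 4.29 on F02, F03, F05 and F08. Here F03 was second, 2.29 below F09 on the log2 scale. Stmn2, a tubulin-binding protein of growing axons, read 5.06, 3.68, 5.84, 9.36 and 5.50 in BMAL+/+ and 4.68, 5.17, 3.61 and 5.13 in BMAL-/-, in the same order of arrays. On F03 it was 1.03 times the median of the 9 arrays. On the second probe set of Stmn2, which read 9.29 on F09, 5.85 on F07 and 5.79 on F03, F09 again stood 3.51 above F03, but F03 was 3.03 times the median, so the level on F03 depends on the probe set.

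Genes of the synaptic vesicle machinery followed the same arrays. Snap25, a protein of the complex that fuses vesicles with the membrane, had the widest span of any member. It read 6.03 on F01, 2.73 on F04, 6.91 on F07, 9.50 on F09 and 4.61 on F10, and 5.60 on F02, 8.33 on F03, 2.84 on F05 and 5.20 on F08. The span of 6.76 on the log2 scale ran between F09 and F04, both labelled BMAL+/+. Without F04, whose clock genes go against its label, the BMAL+/+ arrays spanned 4.88. The BMAL-/- arrays spanned 5.48 with F05 kept, the lowest of them, whose clock genes also go against its label. Without F04 and F05 the SD was 2.05 in BMAL+/+ and 1.70 in BMAL-/-. The group means were 5.96 ± 2.53 (SD, n = 5) for BMAL+/+ and 5.49 ± 2.25 (SD, n = 4) for BMAL-/-, and the groups overlapped. Syt1, the calcium sensor of vesicle release, read 6.61, 4.12, 5.71, 9.18 and 4.02 on the BMAL+/+ arrays, and 5.39, 8.75, 3.40 and 5.71 on the BMAL-/- arrays. For Syt1 the difference between F09 and F03 was 0.43. Of its 3 dimmer probe sets, 1 read 5.48 on F09 and at most 2.53 on each of the other arrays, F03 included, so its probe sets differ on F03.

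**Figure D1:**
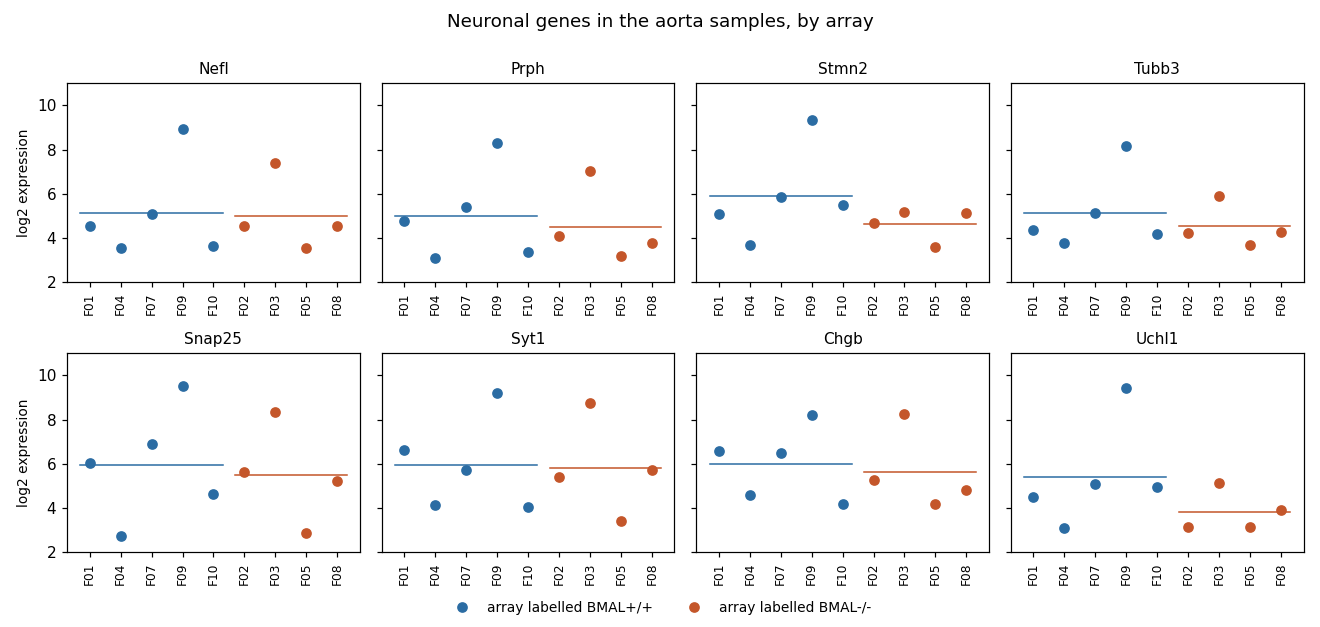
Log2 expression (vertical axis) of 8 neuronal genes on each of the 9 arrays (horizontal axis), with blue points for arrays labelled BMAL+/+ and orange points for BMAL-/-; lines mark the group means. F09 is high in every panel, F03 is level with F09 for Chgb and far below it for Stmn2 and Uchl1.

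Chgb and Scg2 encode granins, proteins packed into the dense secretory granules of neurons and chromaffin cells. Chgb read 6.57, 4.58, 6.49, 8.20 and 4.15 on F01, F04, F07, F09 and F10, and 5.27, 8.26, 4.17 and 4.79 on F02, F03, F05 and F08. Scg2 read 5.37, 4.46, 4.72, 7.38 and 4.06, and then 4.84, 7.39, 4.07 and 4.59, on the same arrays. For both, F03 and F09 were the highest arrays and differed from each other by 0.06 or less, and F10 and F05 were the lowest. The genotype differences were -0.38 ± 1.04 (SE) for Chgb and 0.02 ± 0.83 (SE) for Scg2. Their promoters are shown because these 2 members had the same highest and lowest arrays and share a motif. The sequences are RefSeq windows of GRCm38.p6 from 250 bases before to 50 after the start of the gene, 5′ to 3′ on the gene's strand, and capitals mark the motifs searched.
Scg2, chr1:79439977-79440276, minus strand: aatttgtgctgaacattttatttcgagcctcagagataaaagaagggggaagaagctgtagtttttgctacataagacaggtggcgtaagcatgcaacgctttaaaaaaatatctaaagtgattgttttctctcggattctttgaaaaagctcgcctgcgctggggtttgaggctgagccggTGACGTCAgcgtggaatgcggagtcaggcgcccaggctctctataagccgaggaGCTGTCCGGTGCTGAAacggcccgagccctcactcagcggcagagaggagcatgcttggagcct
Chgb, chr2:132781392-132781691, plus strand: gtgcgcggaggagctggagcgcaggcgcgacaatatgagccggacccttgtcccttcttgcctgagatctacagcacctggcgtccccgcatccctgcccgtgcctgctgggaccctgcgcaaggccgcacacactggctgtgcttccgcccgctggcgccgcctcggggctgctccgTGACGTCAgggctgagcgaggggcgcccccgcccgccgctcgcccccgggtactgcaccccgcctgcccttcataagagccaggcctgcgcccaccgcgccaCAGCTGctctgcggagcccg

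Both hold the cAMP response element, TGACGTCA, starting at base 183 of the Scg2 window and at base 179 of the Chgb window. This motif was in 1.79% of the 32851 promoter windows of the table and in 2 of the 33 windows of these genes (6.06%), and among the 19 genes of the rule with a window these were the only 2. The Scg2 window also holds, on the other strand, the left and right parts of the RE1 element of the neuronal repressor REST. They are TTCAGCACC (in 0.371% of windows) and GGACAGC (in 6.56%), and they abut with no base between them. Whether such a pair acts as an RE1 element was not tested. GGACAGC was found in 4 of 33 windows (12.1%), that of Prx among them. Counted by window, the E-box that BMAL1 binds, CACGTG, was in 1 of the 33 windows of these genes (3.03%), that of Egr2, against 7.15% of all windows. CAGCTG, the E-box form used by neural bHLH factors, was in 5 of 33 (15.2%), against 16.3% of all. Both strands were searched, and the motifs do not overlap each other in these 2 windows.

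Uchl1, Sncg and Rgs4 were at most 1.57 times their median on F03. Uchl1, an abundant ubiquitin hydrolase of neurons, read 4.49, 3.07, 5.06, 9.43 and 4.96 on F01, F04, F07, F09 and F10, and 3.12, 5.15, 3.12 and 3.88 on F02, F03, F05 and F08. On F09 it was 30.6 times the median of the 9 arrays, and on F03 1.57 times. Sncg, gamma-synuclein, which peripheral neurons and also fat cells make, read 5.70, 5.29, 6.77, 9.16 and 7.70 in BMAL+/+ and 5.41, 6.13, 6.09 and 5.83 in BMAL-/-. Its highest arrays were F09, F10 and F07. Of the 5 fat cell markers measured, Cidec had the same 3 highest arrays, Adipoq was highest on F09 and F08, Retn on F08 and F09, Fabp4 on F05, and Lep was lowest on F09. The part of fat in the values of Sncg was not tested. Rgs4, a brake on G protein signalling that smooth muscle can also make, read 7.58, 6.23, 7.34, 7.85 and 6.77, and 5.45, 7.00, 7.10 and 6.46, with the narrowest span, 2.40, of the neuronal members not near the floor.

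Phox2a and Elavl4 were near the floor on average. Phox2a, a transcription factor of autonomic neurons, read 4.55 on F03 and 3.54 on F09, and 2.55 to 2.78 on the others, so that F03 exceeded F09. Elavl4, an RNA-binding protein of neurons, read 5.82 on F09, 5.72 on F03 and 2.95 to 3.63 elsewhere. Both other probe sets of Elavl4 were also highest on F09. Of the 13 other probe sets of neuronal members, 10 were highest on F09.

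Of the 4 genes made by both neurons and Schwann cells, 3 had F09 as their highest array and F03 as the second. Gap43, a protein of growing axons, read 6.22, 3.61, 6.59, 9.13 and 5.06 on F01, F04, F07, F09 and F10, and 5.75, 8.14, 4.41 and 5.24 on F02, F03, F05 and F08. L1cam, an adhesion molecule of axons and non-myelinating Schwann cells, read 5.29, 4.87, 5.50, 7.05 and 5.19, and 5.22, 6.67, 5.17 and 4.72. On both arrays these genes stood well above the rest. Ngfr, the low-affinity receptor of nerve growth factor, read 4.57, 3.18, 4.56, 8.85 and 4.20, and 4.28, 5.04, 3.90 and 4.45. Ngfr was 3.81 higher on F09 than on F03, where it was 1.5 times its median, a pattern like that of Uchl1.

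Ncam1, an adhesion molecule that muscle also makes, behaved differently. It read 10.69, 10.11, 9.98, 9.15 and 9.50 in BMAL+/+ and 9.02, 9.69, 10.53 and 10.18 in BMAL-/-, and was highest on F01 and F05, with F09 among the 2 lowest. Of its other probe sets, 3 had a mean of at least 4. They had differences between genotypes of -0.11, 0.60 and -0.32, against -0.03 on the brightest, so the direction of Ncam1 depends on the probe set. The place of F09 does too, since the probe set at -0.32 was highest on F09 (6.56) and the one at 0.60 was lowest there (5.84).

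The Schwann cell genes spread far less across arrays. The SD within genotypes had a median of 0.57 over the 9 Schwann cell genes not near the floor, against 1.72 over the 11 neuronal genes and 0.34 over all genes with a mean of at least 4. Sox10, the transcription factor that defines the Schwann cell lineage, read 4.70, 4.83, 4.72, 5.27 and 4.67 on F01, F04, F07, F09 and F10, and 4.74, 5.37, 4.51 and 4.71 on F02, F03, F05 and F08. F03 and F09 were highest, as for the neuronal genes, but at only 1.58 and 1.47 times the median of the 9 arrays. Erbb3, the receptor through which neuregulin keeps Schwann cells alive, read 6.23, 6.05, 6.76, 6.53 and 6.05, and 6.06, 7.19, 6.02 and 6.08, highest on F03 and then F07. Gfra3, the receptor for artemin, read between 3.91 and 4.25 in BMAL+/+ and between 4.05 and 4.71 in BMAL-/-, with F03 highest and F09 lowest.

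Myelin genes gave no common pattern. Mbp, myelin basic protein, read 9.33, 8.30, 9.09, 8.21 and 8.24 on F01, F04, F07, F09 and F10, and 8.36, 9.56, 8.27 and 8.38 on F02, F03, F05 and F08, so F03, F01 and F07 were high and F09 lowest. Of its 7 other probe sets, 4 were highest on F03 and 2 on F09 (at 7.76 and 4.54), and a bright one read 8.75 on F09, 1.51 times its median. The place of F09 thus depends on the probe set. The genotype differences of the probe sets with a mean of at least 4 ran from -0.98 to 0.38. Pmp22, a myelin protein that fibroblasts and other cells also make, read 9.78, 9.0, 10.30, 10.34 and 9.92, and 8.81, 8.75, 9.84 and 9.82. For Pmp22 F03 was the lowest array and F09 the highest. Cnp, an enzyme of myelin-forming cells, read 9.56, 9.17, 9.50, 8.74 and 10.15, and 10.82, 10.03, 8.98 and 8.84, highest on F02 and lowest on F09. Cnp and Mbp, like Pmp22, were counted among the genes that other cells also make, and the part of such cells was not tested. Both other probe sets of Cnp were near the floor, with means of 3.33 and 3.81, and had F09 as their second highest array. Their genotype differences were -0.56 and 0.11, against 0.24 on the brightest, so for Cnp too the place of F09 and the direction depend on the probe set. Mag, Pmp2 and Gfap, a myelin adhesion protein, a myelin lipid carrier and the filament of non-myelinating Schwann cells, stayed at the floor on all arrays, between 2.65 and 3.28, and their small differences carry no level.

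The remaining Schwann cell members were Cdh19, S100b and Egr2. Cdh19, a cadherin of the Schwann cell lineage, read 6.03, 4.69, 6.28, 6.80 and 5.25, and 3.15, 5.70, 5.58 and 4.52, the widest span of the Schwann cell members, with F02 lowest. S100b, a calcium-binding protein that fat cells also make, read 6.57, 6.61, 5.25, 6.03 and 5.67, and 5.66, 6.87, 6.30 and 6.02. Neither followed the neuronal order at its brightest probe set, F07 being the lowest array for S100b. The other probe set of S100b, near the floor, read 3.52 on F09 and at most 2.65 on the others. Its genotype difference was -0.14, against 0.19 on the brightest. Egr2, the transcription factor that starts myelination and an immediate early gene in other cells, read 2.95 on F09, 5.83 on F02 and between 3.92 and 4.55 on the other arrays.

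**Figure D2:**
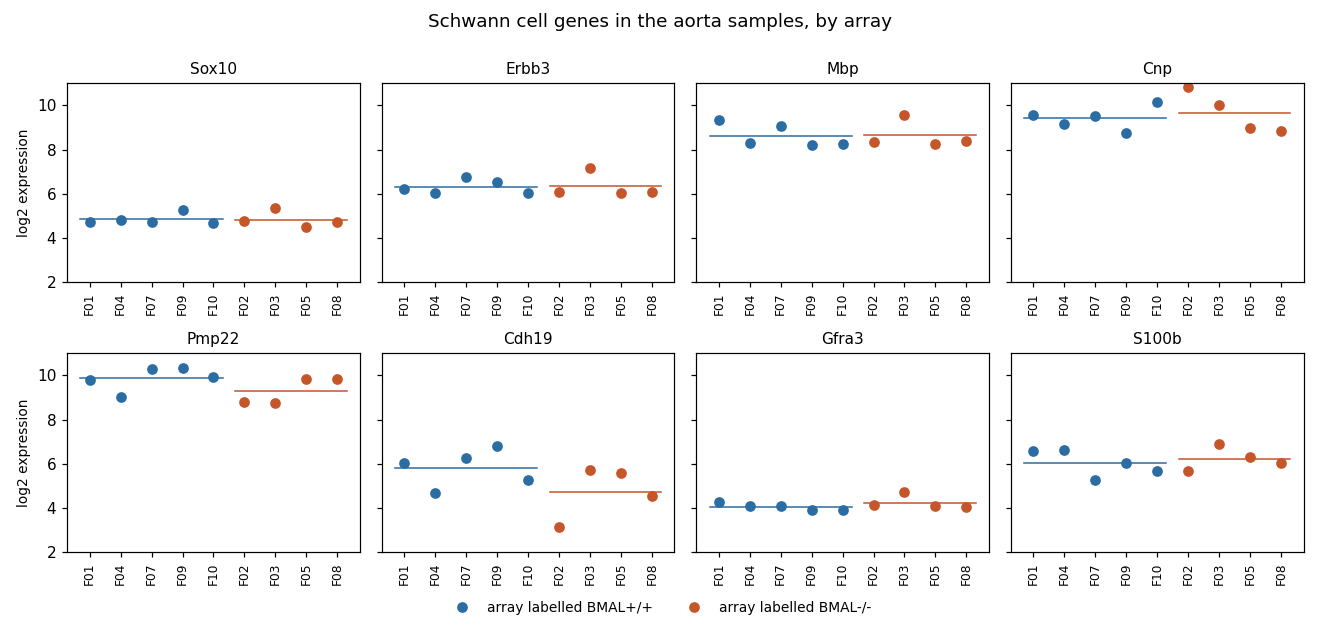
Log2 expression (vertical axis) of 8 Schwann cell genes on each of the 9 arrays (horizontal axis), with blue points for arrays labelled BMAL+/+ and orange points for BMAL-/-; lines mark the group means. Sox10 and Erbb3 are a little higher on F03 than on the other BMAL-/- arrays, whereas Pmp22 is lowest there.

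To compare the classes on each array, each gene was set against its own mean over the 9 arrays and the median was taken over the class. The neuronal level was 2.80 on F09 and 1.79 on F03, 0.26 on F07 and -0.20 on F01, and it was -0.55 on F08, -0.56 on F02, -0.87 on F10 and -1.16 on both F04 and F05. The Schwann cell level was 0.43 on F03 and between -0.11 and 0.01 on each other array, F09 included at -0.03. Neuronal minus Schwann cell was thus 2.82 on F09 and 1.36 on F03, against values from -1.16 on F05 to 0.27 on F07 on the others. Over only the 9 Schwann cell genes not near the floor, the level was 0.54 on F03 and -0.08 on F09. On the other arrays it then ran from -0.28 on F04 to 0.12 on F01. The neuronal level over the 11 such genes was 3.32 on F09, 2.18 on F03 and from -1.58 on F05 to 0.36 on F07. Among the genes not near the floor, 11 of 11 neuronal and 4 of 9 Schwann cell genes were above their own median over the 9 arrays on F09. On F03 these counts were 10 of 11 and 7 of 9, and on F04 they were 0 of 11 and 4 of 9. The Schwann cell level on F09 is a median over genes that lay on both sides, since Cdh19, Sox10, Pmp22 and Erbb3 were above their medians there by 1.22, 0.55, 0.52 and 0.45, and Egr2 and Cnp differed from theirs by -1.07 and -0.75. A level of 1 array has no replicate, so no test of these single arrays was made.

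**Figure D3:**
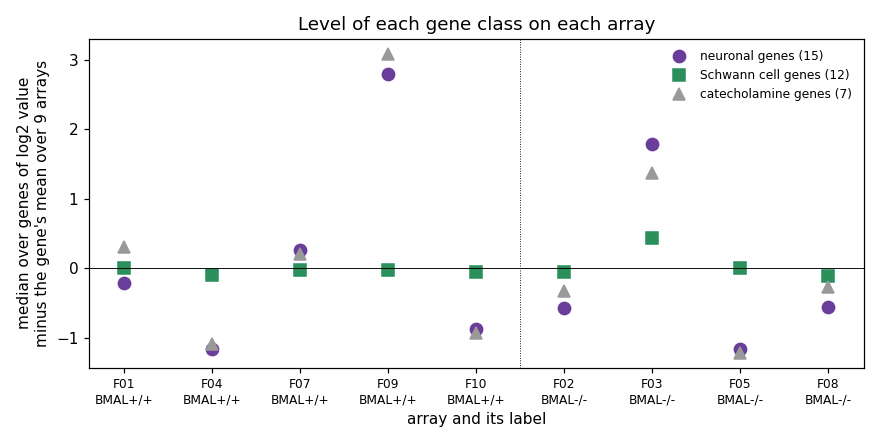
Median over the genes of a class of the log2 value minus the gene's mean over the 9 arrays (vertical axis), for each array with its label (horizontal axis); circles are 15 neuronal genes, squares 12 Schwann cell genes and triangles 7 catecholamine genes. Neuronal and catecholamine genes lie close to each other on most arrays, with 2.80 and 3.08 on F09, while the squares stay near 0 except for 0.43 on F03. Of the 12 Schwann cell genes, 3 are near the floor.

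By genotype no member passed. In limma, 0 of 31 members had an adjusted p under 0.05, as did 0 of 45037 probe sets, which is 0% of them, and the smallest adjusted p of a member was 0.372, of Cdh19. The unadjusted p was under 0.05 for 0 of 31 members at their brightest probe set and for 4 of their 69 probe sets (5.8%), against 8.67% of all probe sets. The genotypes overlapped at all 31 members, while 0.773% of all probe sets did not overlap. Among the 15 neuronal genes 12 were lower and 3 higher in BMAL-/-, with a median difference of -0.41, against 0.03 over all genes. That sign rested on F09 and F05, since the median was 0.35 without F09 and 0.08 without F05. Among the 12 Schwann cell genes 3 were lower and 9 higher, with a median of 0.02, and all 4 genes made by both were lower, with a median of -0.19.

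The largest differences were those of Uchl1, Stmn2, Cdh19 and Sncg, and none passed. Uchl1 averaged 5.40 ± 2.39 (SD) over the 5 BMAL+/+ arrays and 3.82 ± 0.96 (SD) over the 4 BMAL-/- arrays, and differed by -1.58 ± 1.15 (SE; limma, adjusted p = 0.44). Stmn2 differed by -1.24 ± 1.0 (SE, adjusted p = 0.481), Cdh19 by -1.08 ± 0.61 (SE) and Sncg by -1.06 ± 0.73 (SE, adjusted p = 0.421). Each of them rested in large part on 1 array. Without F09 the difference was -0.58 for Uchl1, -0.38 for Stmn2 and -0.50 for Sncg, and without F02 it was -0.55 for Cdh19. The SEs of the 15 neuronal genes ran from 0.40 to 1.45, on a scale where a doubling is 1. Sox10 (0.00 ± 0.20, SE) and Erbb3 (0.02 ± 0.28, SE) had narrower errors around differences close to 0.

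**Figure D4:**
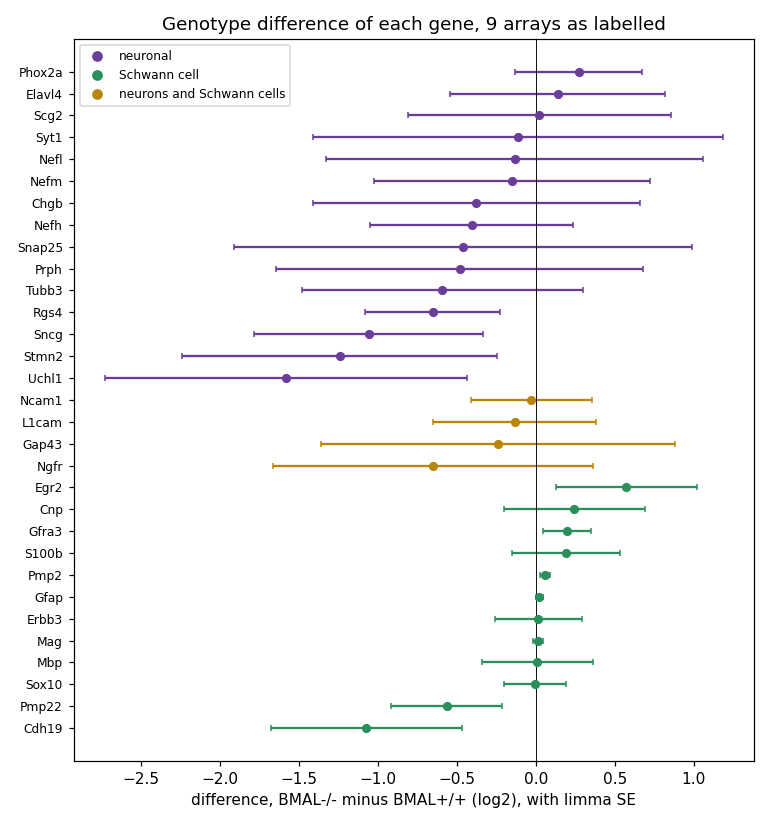
Difference BMAL-/- minus BMAL+/+ on the log2 scale (horizontal axis) with limma's SE as bars, for the 31 genes (vertical axis), coloured by class; 9 arrays as labelled. The bars of most neuronal genes are wide and the points of the Schwann cell genes lie closer to 0, apart from Cdh19 at -1.08, Pmp22 at -0.57 and Egr2 at 0.57.

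Without F04 and F05, again 0 of 31 members had an adjusted p under 0.05, against 4 of 45037 probe sets (0.00888%). The genotypes overlapped at the brightest probe set of all 31, against 17.5% of probe sets without overlap. A dimmer probe set of Mbp did not overlap (7.04 ± 0.60 in BMAL+/+ and 5.78 ± 1.04 in BMAL-/-, SD), nor did a floor-level probe set of Gfap. The unadjusted p was under 0.05 for 3 of 31, all lower in BMAL-/-, against 23.7% of all probe sets. They were Pmp22 (-0.96 ± 0.31, SE), Cdh19 (-1.64 ± 0.63, SE) and Rgs4 (-1.08 ± 0.42, SE), each at an adjusted p of 0.208. On the same 7 arrays the 6 smooth muscle markers were all lower in BMAL-/-, with a median of -0.995 and an unadjusted p under 0.05 for 3, and 4 of 6 fibroblast markers were lower, with a median of -1.39 and such a p for 4 (Dcn -1.17, adjusted p = 0.121). Smooth muscle can also make Rgs4 and fibroblasts Pmp22, and the part of these cells in the differences was not tested. None of the filament, synaptic or granule genes was among them. The neuronal median was -0.39 and the Schwann cell median 0.06.

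Further nerve genes came from 4 lists of related genes. Of 7 genes of catecholamine neurons and chromaffin cells, 5 had F09 and F03 as their highest arrays. Th, the first enzyme of catecholamine synthesis, read 9.06 on F09, 5.91 on F03 and 3.68 to 5.25 on the others, and the noradrenaline transporter Slc6a2 read 10.96 on F09, 10.87 on F03 and 5.71 to 8.49 on the others. The other two did not. Pnmt, which makes adrenaline in chromaffin cells, lay between 5.03 and 5.60, and Slc18a1, their vesicle transporter, between 2.65 and 2.96. Of the 27 other neuronal genes measured, 22 were highest on F09, 3 on F03, and 17 had both on top, and 13 were near the floor. Among the 14 not near the floor, 13 were highest on F09 and 9 had both on top. Over all genes with a mean of at least 4, these shares were 19.7% and 4.34%. Examples are Hand2, a transcription factor of sympathetic neurons, at 7.79 on F09 and 6.93 on F03, and Npy, a peptide stored with noradrenaline, which was high on F09 (11.74) and not on F03 (7.10).

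Of 22 other Schwann cell genes, 8 were highest on F03 and 3 on F09, and 10 were near the floor. Over all 18193 genes, 4258 were highest on F03. Among the 12 other Schwann cell genes not near the floor, 6 were highest on F03 and 2 on F09. The shares over all genes with a mean of at least 4 were 14.3% and 19.7%. Fabp7, a lipid carrier of immature glia, read 9.53 on F03, 7.67 on F09 and 7.61 on F02, and was at 2.32 on F05. Of 16 nerve growth factors and their receptors 1 was highest on F09, and 9 were near the floor, Gdnf, Bdnf and Artn among them. None of these 4 lists held a gene with an adjusted p under 0.05 by genotype. The unadjusted p was under 0.05 for 1 of them, Gfra1, at 2.34 ± 0.02 (SD, n = 5) and 2.41 ± 0.06 (SD, n = 4), at the floor in both groups. Over all probe sets, 8.67% had such a p. Without F04 and F05 again no gene of the 4 lists passed. The unadjusted p was then under 0.05 for 3 of 27 other neuronal genes and 2 of 22 other Schwann cell genes. It was so for 6 of 16 nerve factors or receptors and 0 of 7 catecholamine genes, against 23.7% of all probe sets. Of these 11, those not near the floor were Map1b (-1.73 ± 0.58, SE), Fabp7 (2.97 ± 1.22, SE), Ntrk2, the receptor of Bdnf (0.90 ± 0.27, SE), and Plxna4, a semaphorin co-receptor (-0.59 ± 0.19, SE), each at an adjusted p of 0.208 in limma.

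Markers of other tissues moved between arrays as well, and their part in the neuronal values was not tested. The 8 markers of the central nervous system, Mog, Gad1 and Slc17a7 among them, had a mean of 2.76 to 2.88 in BMAL+/+ and 2.81 to 3.12 in BMAL-/-. All 8 had a mean near the floor, with the highest value 4.27, of Aqp4 on F02, and Mog (3.12 and 3.26) was the 1 with an unadjusted p under 0.05. The 4 melanocyte markers, another neural crest lineage, lay between 2.39 and 2.52 in the mean. Brown fat was highest on F09, with a mean over 4 markers of 13.3 against 10.7 to 12.3 on the other arrays, F03 included at 10.9. Heart muscle markers were also highest on F09 (10.0) and were 8.67 on F03 and 9.53 on F07. Skeletal muscle markers ran from 4.21 on F01 to 11.6 on F08, with F09 and F03 in between at 10.2 and 9.63. Fibroblast and smooth muscle markers were lowest on F03, at 8.43 and 10.3. Of the vessel wall markers, Pecam1 (-1.39) and Dcn (-0.73) had an unadjusted p under 0.05 in limma, each at an adjusted p of 0.37. Over all probe sets, 8.67% had such an unadjusted p.

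Pairs of members were compared across the 9 arrays where both were above the floor, which left 4 of 6 pairs. Prph and Stmn2 were correlated with r = 0.82 (exact permutation p = 0.00675, adjusted over the 4 pairs 0.027) and rho = 0.73 (exact permutation p = 0.0311, adjusted 0.118), and r was 0.70 without F03 and F09. Prph and Sox10 gave r = 0.86 (exact permutation p = 0.0143, adjusted 0.0286) and rho = 0.55 (exact permutation p = 0.133, adjusted 0.177), but r was 0.16 without F03 and F09. Sox10 and Erbb3 gave r = 0.75 (exact permutation p = 0.032, adjusted 0.0427) and rho = 0.67 (exact permutation p = 0.0589, adjusted 0.118), and 0.14 without these arrays. Nefl and Mbp gave r = 0.26 (exact permutation p = 0.555, adjusted 0.555) and rho = 0.29 (exact permutation p = 0.458, adjusted 0.458). Without F03 and F09 the r of Nefl and Mbp was 0.69. Within BMAL+/+ and within BMAL-/-, r was 0.94 and 0.62 for Prph with Stmn2, 0.82 and 0.997 for Prph with Sox10, 0.32 and 0.97 for Sox10 with Erbb3, and -0.20 and 0.98 for Nefl with Mbp, over 5 and 4 arrays. The relations of Sox10 with Prph and with Erbb3 thus rested on F03 and F09, while the r of Prph with Stmn2 stayed at 0.70 without them. The r values over the 7 arrays left were not tested.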

How the data were processed

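Total RNA of the aorta was hybridised to Affymetrix whole-genome mouse arrays, 1 per sample, per the labels' protocols. The table the authors deposited holds log2 expression of 45101 probe sets. GCRMA and MAS5 are named in the submitters' processing notes, with neither role nor settings. Values of dim probe sets lie on a floor with little spread, where small differences carry no level. After 64 control probe sets were left out, 45037 were tested, of which 34945 are paired with 1 gene, 932 with several and 9160 are not listed. The platform annotation was updated to RefSeq symbols through identifiers (34741 matched).

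Genotype was fitted as the only term with limma 3.58.1 in R 4.3.3 (lmFit, eBayes with trend, 1.76 prior degrees of freedom; two-sided, Benjamini-Hochberg over all probe sets, threshold 0.05), with a fit without F04 and F05 beside it. Correlations have two-sided exact permutation p-values. The code was tested on simulated data. Named were all 31 members measured, and of other lists the genes with an unadjusted p under 0.05, at most 4 per list; examples beyond these were chosen after their values were seen. Members, lists and tests were chosen with earlier results of these data known. Alternatives are given in the closing section. The number of arrays limits the precision.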

Additional observations from a re-analysis of the deposited data

Results flagged for a closer look

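Within a genotype, a gene was singled out when the gap between its most extreme array and the next one took up most of the range of that group (Dixon's criterion, which chance meets in about 1 of 20 groups). This happened in 17 of 62 groups, 8 times for F09 as the high array and 6 times for F03 as the high array. The share of such groups over all genes was not computed, so the count has no background from these arrays. Over the 9699 genes with a mean of at least 4, F09 was the highest array for 19.7% and F03 for 14.3%. Of the genes singled out, Nefm, Nefh, Phox2a, Elavl4, Pmp2 and Gfap were near the floor on average.

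F09 stood apart from the other BMAL+/+ arrays for Nefl (8.92, others up to 5.06), Nefm (6.55, others up to 3.68), Nefh (6.24, others up to 3.38), Phox2a (3.54, others up to 2.75), Elavl4 (5.82, others up to 3.63), Sox10 (5.27, others up to 4.83), L1cam (7.05, others up to 5.50) and Ngfr (8.85, others up to 4.57). F03 stood apart from the other BMAL-/- arrays for Nefm (5.61, others up to 3.10), Phox2a (4.55, others up to 2.78), Elavl4 (5.72, others up to 3.47), Mbp (9.56, others up to 8.38), Gfra3 (4.71, others up to 4.11) and Erbb3 (7.19, others up to 6.08). Neuronal and Schwann cell genes are both among those of F03, while 5 of the 8 of F09 are neuronal.

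The other 3 were Egr2 on F02 (5.83, other BMAL-/- arrays up to 4.21), Pmp2 on F04 (2.81, other BMAL+/+ arrays up to 2.76) and Gfap on F01 (2.65, other BMAL+/+ arrays from 2.73), the last 2 at the floor.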

How the results depend on the processing

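At the probe set standing for each gene, or the mean of its probe sets, no member passed an adjusted p under 0.05 under any alternative. No member separated the genotypes there either. Without F04 and F05, a dimmer probe set of Mbp and a floor-level probe set of Gfap did separate them. The count of members with an unadjusted p under 0.05, 0 of 31 as labelled, went to 5 with array weights (Stmn2, Snap25, Uchl1, Chgb and S100b, where 27.4% of all probe sets had such a p), to 3 without F04 and F05, and ranged from 0 to 1 when each array was left out. That 1 was Pmp22 without F04 and Pmp2 without F08. The weights ran from 0.291 on F02 to 5.75 on F05. The neuronal median difference of -0.41 was -1.11 with array weights, 0.35 without F09, 0.08 without F05, -1.05 without F03 and, in a comparison chosen after seeing the data, -0.28 without both F03 and F09. The Schwann cell median lay between -0.09 and 0.11 in the fits of all members.

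On every array, neuronal minus Schwann cell moved by less than its SD within genotypes (1.37) under each alternative, all chosen after seeing the data, and F09 was highest wherever it was kept. That SD includes F09 and F03 themselves. It is wide beside the other arrays, which lay between -1.16 and 0.27, so this bound says little about them. F07 was not above 0 when genes also made by other cells were left out (Rgs4, Sncg, Uchl1, S100b, Pmp22, Cnp and Mbp). F01 was above 0 with each gene's median as its reference. No paired analysis was possible because the groups share no replicate numbers. The pairs Nefl with Nefm and Mbp with Prx were not run, since Nefm was near the floor and Prx had no probe set of its own. Dim members limit the reading of Mag, Pmp2 and Gfap, and 28 of the 38 other probe sets had a mean under 4.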

Other observations

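Genes other than the members, chosen after their values were seen, were ranked by their correlation over the 9 arrays with the neuronal level, among 2421 genes with a mean of at least 4 and an SD of at least 0.5. Of these, 25 had r of at least 0.95. The first were Spock3, Hand2, Cadps, a factor that primes dense granules for release, Rufy3 and Kif5a, a motor of axonal transport. Spock3 (r = 0.99) read 7.30 on F09, 6.42 on F03 and 3.36 to 4.86 on the others, and Cadps (r = 0.98) 7.32, 5.74 and 2.91 to 4.55. Gch1, which makes the cofactor of tyrosine hydroxylase, was among the first 40 (r = 0.97), at 6.53 on F09, 6.54 on F03 and 4.41 to 5.35 elsewhere. Htr3a, a serotonin-gated channel of autonomic neurons, read 6.18 on F09 and 6.07 on F03, and Avil 7.00 and 7.45. Of the first 40, 10 came from the lists of neuronal and catecholamine genes. Since 2 arrays carry most of the pattern, these values are a description of the 9 arrays, with no test.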
